A study of Mus musculus with 2 samples.

Results

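The insulin-like growth factor genes were followed through single nuclei of 2 mouse brain tissues. The 8 genes are the ligands Igf1 and Igf2, the noncoding RNA H19 that lies beside Igf2, the receptors Igf1r and Igf2r, and the binding proteins Igfbp2, Igfbp4 and Igfbp5. They were taken by their symbols from the 32285 genes of both count tables, and all 8 were found in both. The 8 were chosen with earlier results of these data known. Each table comes from Slide-tags, in which nuclei in a thin frozen section receive DNA barcodes from a bead array and are then released for droplet-based single-nucleus RNA sequencing. The adult library holds nuclei of the hippocampal region of a male mouse of the inbred C57BL/6J strain, killed at 56 days of age, while the embryonic library holds nuclei from a sagittal section of the brain of a C57BL/6J embryo at embryonic day 14 (E14), whose sex the sources used here do not give. Neither tissue carried a transgene or received a treatment, the adult mouse and the pregnant mouse had been perfused before collection, and the spatial positions were not analysed here. There were no replicates, so no comparison was tested, and age, sex, region and library cannot be told apart in any difference between the tissues.

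The adult library held 1609 nuclei and 15346746 unique molecular identifiers (UMIs, each marking a captured RNA molecule), with a median of 6607 per nucleus, and the E14 library held 9036 nuclei and 58923882 UMIs with a median of 4204. Nuclei were assigned to classes by their UMIs for lists of 8 marker genes that hold none of the 8 genes described here, and a class is called by its list with the ending "-like". This named 1312 adult nuclei (81.5%) in 11 classes and 3735 E14 nuclei (41.3%) in 12, and 1 barcode sequence occurred in both libraries. No adult class of fibroblasts or choroid plexus epithelium was found. The fibroblast list stood at 8.21 UMIs per 1000000 UMIs (CPM) over the adult library against 221 CPM at E14. The choroid plexus epithelium list stood at 46.2 CPM in the adult against 122 CPM at E14. Of its 8 markers, 6 had adult UMIs, and Folr1 and Clic6 had none. The vascular classes were not clean. In the adult, endothelial-like nuclei held the mural list at 4051 CPM, beside 7633 CPM in the 12 mural-like nuclei, and the mural-like nuclei held the endothelial list at 3546 CPM. At E14 the 42 mural-like nuclei held the endothelial list at 1092 CPM, beside their own list at 1321 CPM. Every vascular value below carries this mixture, whose part in the results was not tested. The 74 choroid plexus epithelium-like nuclei at E14 held their own list at 1632 CPM and the microglia or macrophage list at 381 CPM.

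Insulin-like growth factors are secreted peptides related to insulin that promote growth and survival. Both act through the receptor tyrosine kinase encoded by Igf1r, whereas the product of Igf2r binds IGF2 and takes it into the cell for breakdown, and the binding proteins hold the ligands outside the cell and alter their access to receptors. Igf2 and H19 are imprinted neighbours, expressed in most tissues from the paternal and the maternal allele. In the brain Igf2 is known from the meninges, the choroid plexus and vessels. The alleles were not told apart here.

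On the mouse build GRCm38 (mm10, GENCODE vM21), Igf2 lies at chr7:142650766-142666816 on the minus strand, 72622 bp from H19 (chr7:142575529-142578143, minus strand), a long intergenic noncoding RNA of at most 5 exons. Igf1r (chr7:67952827-68233668, plus strand) spans 280842 bp of the same chromosome. Igf1 lies at chr10:87858265-87937042 (plus strand), Igfbp4 at chr11:99041244-99054392 (plus strand) and Igf2r, with 48 exons, at chr17:12682406-12769664 (minus strand). Igfbp2 (chr1:72824503-72852474, plus strand) and Igfbp5 (chr1:72857932-72874884, minus strand) are neighbours separated by 5457 bp and facing each other. The antisense RNA Airn overlaps Igf2r by 28354 bp and Igf2os overlaps Igf2 by 7124 bp. Whether the counting used the strand is not given in the sources used here, so reads from those overlaps cannot be assigned with certainty.

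H19 and Igf2 each hold a microRNA gene inside their transcribed region, Mir675 (chr7:142577064-142577147) and Mir483 (chr7:142654924-142654996). The mature microRNAs are shown because, of the 8 genes, their hosts differ most between the embryonic mesenchyme and the other named nuclei. The libraries did not measure mature microRNAs. The sequences are from RefSeq (GRCm38.p6), 5′ to 3′, with the seed (bases 2 to 8) in capitals, and each of the 4 seeds occurs in 1 of the 1738 mature mouse microRNAs of that set.
mmu-miR-675-5p (H19): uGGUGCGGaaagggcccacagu
mmu-miR-675-3p (H19): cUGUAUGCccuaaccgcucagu
mmu-miR-483-5p (Igf2): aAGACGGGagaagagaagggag
mmu-miR-483-3p (Igf2): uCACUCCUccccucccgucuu

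Promoter windows, the 250 bases before a RefSeq start on GRCm38.p6, were available for 7 of the 8 genes and were searched on both strands for the letters GGGCGG (known as the GC box), TATAAA (known as the TATA box) and CACGTG (known as the E-box). Of 32851 windows of the same length, 32.74% held the GC box, 12.37% the TATA box and 6.02% the E-box. The windows of 3 genes are shown because these genes differ between embryonic and adult vessels below: the last of the 4 Igf2 starts, with its 2 GC boxes in capitals, Igf2r with its 2 E-boxes in capitals, and Igfbp4 with its TATA box in capitals. These letters say only what the windows hold. The counts do not tell which Igf2 start was used.
Igf2 (chr7:142657497-142657746, minus strand): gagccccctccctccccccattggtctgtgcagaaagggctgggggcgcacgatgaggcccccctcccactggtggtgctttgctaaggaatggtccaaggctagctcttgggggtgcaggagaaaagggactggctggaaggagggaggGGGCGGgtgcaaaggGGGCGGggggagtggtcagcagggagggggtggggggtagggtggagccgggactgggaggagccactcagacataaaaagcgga
Igf2r (chr17:12769707-12769956, minus strand): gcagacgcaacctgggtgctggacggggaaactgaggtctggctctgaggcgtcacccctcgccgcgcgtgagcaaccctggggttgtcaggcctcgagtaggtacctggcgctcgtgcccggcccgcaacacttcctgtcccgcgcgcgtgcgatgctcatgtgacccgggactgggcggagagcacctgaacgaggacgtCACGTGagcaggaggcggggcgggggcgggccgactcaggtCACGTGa
Igfbp4 (chr11:99040994-99041243, plus strand): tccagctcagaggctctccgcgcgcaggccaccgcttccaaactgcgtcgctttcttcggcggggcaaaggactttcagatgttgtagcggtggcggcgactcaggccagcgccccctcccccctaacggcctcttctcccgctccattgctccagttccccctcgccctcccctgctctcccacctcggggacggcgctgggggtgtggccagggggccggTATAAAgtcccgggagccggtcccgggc

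Each level below pools the nuclei of a class and is given in CPM, with exact 95% Poisson intervals, and shares of nuclei carry exact 95% binomial intervals. Both cover counting error only, and neither says how another animal would vary. Igf2 was highest in the 319 fibroblast or mesenchyme-like nuclei of the E14 library, called mesenchyme-like from here on, at 986 CPM (95% interval 943 to 1030.1, 1983 UMIs). Endothelial-like nuclei followed at 351 CPM (319.5 to 384), mural-like nuclei at 213 CPM (176 to 255) and choroid plexus epithelium-like nuclei at 155 CPM (134 to 178). The intervals of the highest class, the endothelial-like and the mural-like nuclei were clear of each other, and those of the mural-like and choroid plexus epithelium-like nuclei met narrowly. All other classes lay between 9.60 CPM in radial glia-like and 33.4 CPM in microglia or macrophage-like nuclei. Forebrain GABAergic-like, thalamic-like, cortical excitatory-like, hypothalamic-like and radial glia-like nuclei, at 13.8 CPM or less, overlapped. Mesenchyme-like nuclei held 54.0% of all Igf2 UMIs and 3.41% of all UMIs of the library.

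**Figure D1:**
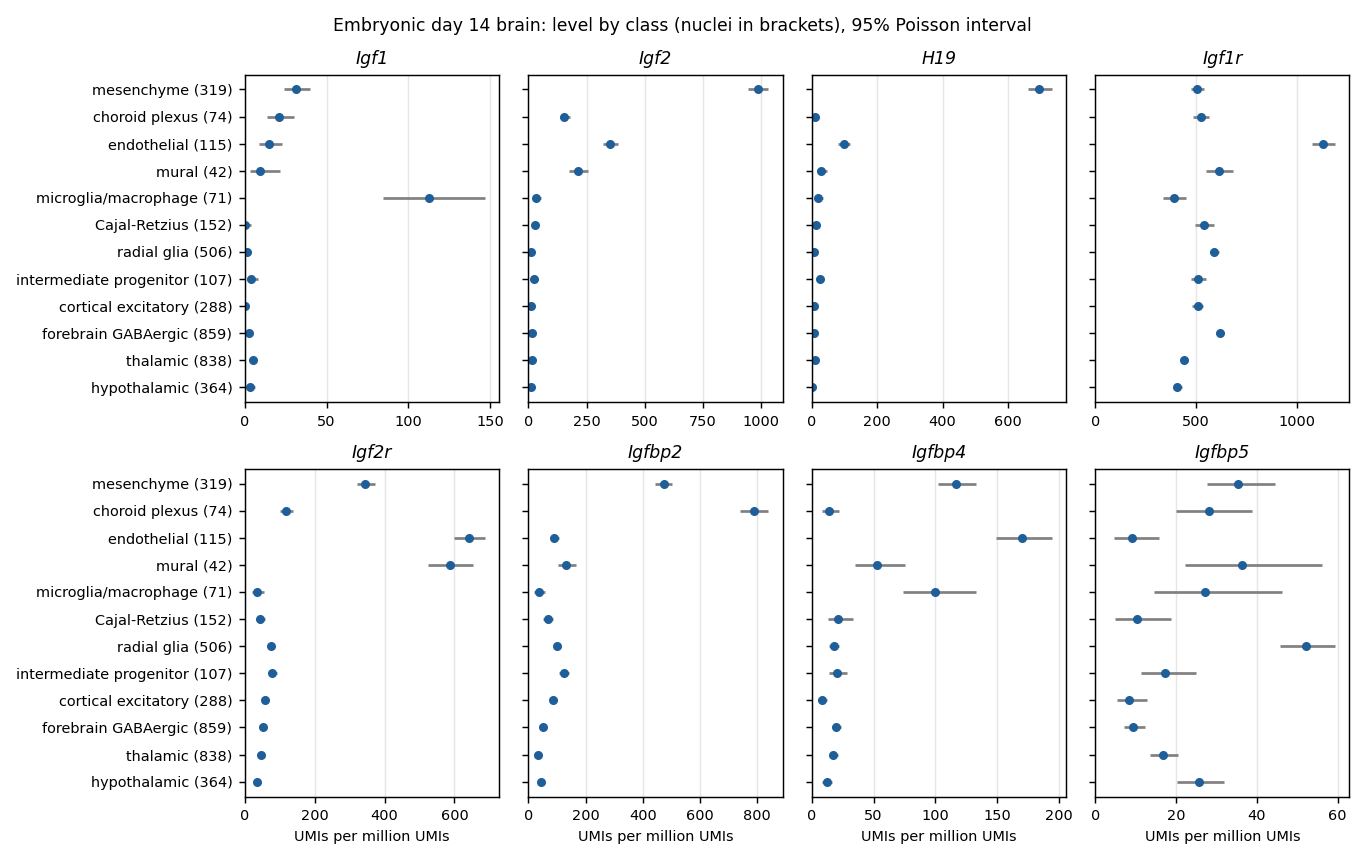
Level of each of the 8 genes in the 12 classes of the E14 library, in CPM on linear axes that differ between panels, with 95% Poisson intervals as bars. Igf2 and H19 stand out in mesenchyme-like nuclei (986 and 696), Igf1 in microglia or macrophage-like nuclei (113), Igf1r in endothelial-like nuclei (1129), Igf2r in endothelial-like and mural-like nuclei (642 and 587, overlapping), and Igfbp2 in choroid plexus epithelium-like nuclei (790.1).

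After each nucleus was thinned to 1000 UMIs, 47.3% of 296 mesenchyme-like nuclei (41.5 to 53.2%) had an Igf2 UMI, with 23 shallower nuclei left out, and 79.3% of all 319 had one before thinning. In forebrain GABAergic-like nuclei, taken as the class that should lack the gene, the thinned share was 2.14% (1.27 to 3.36%) of 841, with 18 left out, at a median depth of 4038 UMIs against 3934 in the mesenchyme. No neuronal or progenitor class had a higher share, and these shares are not read as expression. Among 2349 E14 neurons, the 587 deepest had 7.75 times the UMIs of the 587 shallowest but 2.51 times the Igf2 UMIs (1.75 to 3.66), beside 1.99 times for Ttr, a choroid plexus transcript, and 6.31 times for Igf1r. H19 had 5.33 times (2.85 to 10.9), and the collagen genes Col1a1 and Col1a2 had 5.40 and 5.73 times.

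H19, which is noncoding, followed Igf2 in its leading class and was more restricted to it. It stood at 696 CPM (660 to 733) in mesenchyme-like nuclei, at 97.0 CPM (80.9 to 115) in endothelial-like nuclei and at 29.1 CPM (16.6 to 47.2) in mural-like nuclei. The other classes lay between 1.60 CPM in hypothalamic-like and 26.4 CPM in intermediate progenitor-like nuclei, and 30 of the 43 UMIs in the latter came from 1 nucleus. Mesenchyme-like nuclei held 70.4% of all H19 UMIs, and after thinning 23.0% of them (18.3 to 28.2%) had one, against 0.832% of forebrain GABAergic-like nuclei. A single mesenchyme-like nucleus of 87528 UMIs, which was not among the likely doublets, held 315 of the Igf2 and 459 of the H19 UMIs. Without it, Igf2 was at 867 CPM (826 to 909.5) and H19 at 489 CPM (458 to 521).

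The ratio of H19 to Igf2 UMIs differed between the classes that held most Igf2. It was 0.706 in mesenchyme-like nuclei, or 0.564 (0.520 to 0.611) without the nucleus just named, 0.276 (0.226 to 0.337) in endothelial-like, 0.137 (0.0757 to 0.232) in mural-like and 0.0640 (0.0335 to 0.112) in choroid plexus epithelium-like nuclei. Among neuronal classes it was 0.805 (0.567 to 1.14) in thalamic-like and 0.156 (0.0475 to 0.404) in hypothalamic-like nuclei. Igf2 UMIs were also set against UMIs of the fibroblast collagens Col1a1, Col1a2 and Col3a1. There were 0.351 Igf2 UMIs per collagen UMI in mesenchyme-like nuclei (0.333 to 0.369). The ratio was 0.789 (0.697 to 0.892) in endothelial-like, 0.709 (0.555 to 0.904) in mural-like and 2.45 (1.89 to 3.20) in choroid plexus epithelium-like nuclei. These 3 intervals lay above that of the mesenchyme. So did those of radial glia-like (0.896), hypothalamic-like (0.821), cortical excitatory-like (0.818) and forebrain GABAergic-like nuclei (0.598), which overlapped with the endothelial-like and mural-like intervals. The interval met that of the mesenchyme in microglia or macrophage-like (0.457), thalamic-like (0.361) and Cajal-Retzius-like nuclei (0.308). It lay lower in intermediate progenitor-like nuclei (0.116). The 8 fibroblast markers were all present in endothelial-like nuclei at 554 CPM, in mural-like nuclei at 378 CPM and in choroid plexus epithelium-like nuclei at 110 CPM, against 3803 CPM in mesenchyme-like nuclei.

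**Figure D2:**
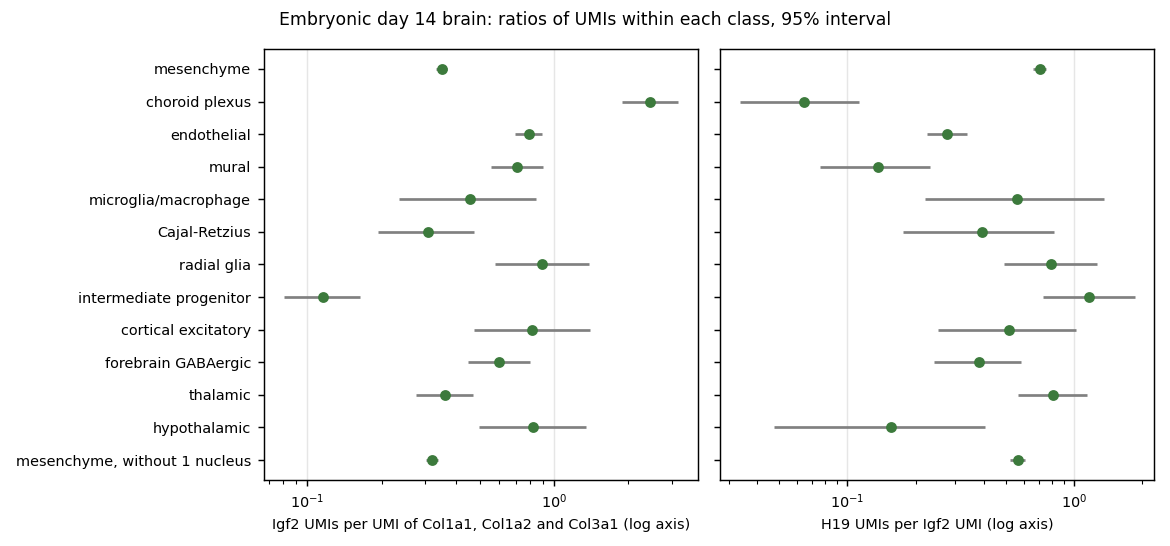
Igf2 UMIs per collagen UMI (left) and H19 UMIs per Igf2 UMI (right) in each E14 class on log axes, with 95% intervals as bars. Choroid plexus epithelium-like nuclei have the most Igf2 per collagen UMI (2.45) and the least H19 per Igf2 UMI (0.0640), and mesenchyme-like nuclei without the deepest carrier stand at 0.320 and 0.564.

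Within the mesenchyme, Igf2 and H19 occurred together and were higher in nuclei with meningeal genes. Of 257 nuclei thinned to 2000 UMIs, 74 had UMIs of both, 94 of Igf2 alone, 15 of H19 alone and 74 of neither, so H19 was found in 44.0% of nuclei with an Igf2 UMI and 16.9% of those without. With the deepest carrier left out, the 170 nuclei in which a UMI of Aldh1a2, Slc6a13, Foxd1, Tbx18, Ogn or Crabp2 remained after thinning had Igf2 at 1080.2 CPM (1016 to 1147) and H19 at 638 CPM (589 to 690.0). The 125 nuclei without such a UMI had Igf2 at 597 CPM (549 to 649) and H19 at 310.5 CPM (276 to 348), at a median depth of 5039 UMIs against 3843. Igfbp2 was at 509.9 CPM and 388 CPM in the same order, also with intervals clear of each other. Igf1r, at 527 and 502 CPM, had overlapping intervals, as had Igf1 at 21.5 and 36.5 CPM.

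In the adult, Igf2 was confined to a few vascular nuclei and H19 was almost absent. The 56 Igf2 UMIs of the library lay in 18 nuclei: 32 UMIs in 10 of the 12 mural-like nuclei, 22 in 6 of the 53 endothelial-like nuclei and 2 in oligodendrocyte-like nuclei. This put the mural-like class at 299 CPM (204 to 422) and the endothelial-like class at 64.5 CPM (40.4 to 97.6), with intervals clear of each other, and the 8 other classes had no UMI. In mural-like nuclei the counts per nucleus ranged from 0 to 9 with a median of 1. Of the endothelial-like UMIs, 11 were in a nucleus of 37456 UMIs that also had 5 of the 8 fibroblast markers, and the class stood at 36.2 CPM (18.1 to 64.8) without it. The fibroblast list was at 308 CPM in adult mural-like nuclei, with Col3a1, Lum, Col6a3 and Bnc2 at 0, and at 96.7 CPM in endothelial-like nuclei, with Col3a1 at 0, and the part of fibroblast RNA in vascular Igf2 was not tested. H19 had 1 UMI in the adult library, in a dentate granule-like nucleus.

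Igf1, the ligand known as a target of growth hormone and a product of microglia and certain interneurons, was highest in different classes in the 2 tissues. At E14 it was highest in the 71 microglia or macrophage-like nuclei, at 113 CPM (84.6 to 147, 54 UMIs), and its thinned share there was 19.7% (11.2 to 30.9%) against 0 of 288 cortical excitatory-like nuclei. It followed in mesenchyme-like nuclei at 31.3 CPM (24.1 to 40.1), choroid plexus epithelium-like nuclei at 20.6 CPM (13.6 to 30.0), endothelial-like nuclei at 14.4 CPM and mural-like nuclei at 9.09 CPM, and neighbours in this order overlapped after the first. Cajal-Retzius-like and cortical excitatory-like nuclei had no UMI, and the remaining 5 classes lay between 1.34 and 4.73 CPM. Of the 399 Igf1 UMIs at E14, 168 (42.1%) lay in nuclei without a class, which held 49.2% of all UMIs. Mesenchyme-like nuclei held 63 (15.8%), and microglia or macrophage-like nuclei 54 (13.5%) with 0.814% of all UMIs. Of the 54 UMIs, 53 lay in the 53 nuclei with a UMI of Mrc1, a receptor of macrophages that border the brain, which put them at 128 CPM (96.0 to 168), and 1 UMI lay in the 18 nuclei without (15.1 CPM, 0.382 to 84.2). Weighting every nucleus equally put Igf1 in this class at 192 CPM.

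In the adult, 89 of the 123 Igf1 UMIs lay in the 22 inhibitory-like nuclei, at 344 CPM (276 to 423). Thalamic excitatory-like nuclei were next at 12.5 CPM (7.41 to 19.8), astrocyte-like and oligodendrocyte-like nuclei had 1 UMI each, and 7 classes had none, among them the 42 microglia or macrophage-like nuclei. At the depth of that class, 0 UMIs allow up to 21.7 CPM (3 UMIs). The counts in inhibitory-like nuclei ranged from 0 to 23 per nucleus with a median of 1.5, 15 of 22 nuclei had one, and 3 nuclei held 53 of the 89 UMIs. With classes taken from clusters in place of marker UMIs, Igf1 in inhibitory-like nuclei was at 174 CPM. Among nuclei without a class, the 64 with a UMI of Gad1 or Gad2, the genes of GABA synthesis, held Igf1 at 24.0 CPM (12.8 to 41.0) and the 233 without held 1 UMI (1.65 CPM).

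**Figure D3:**
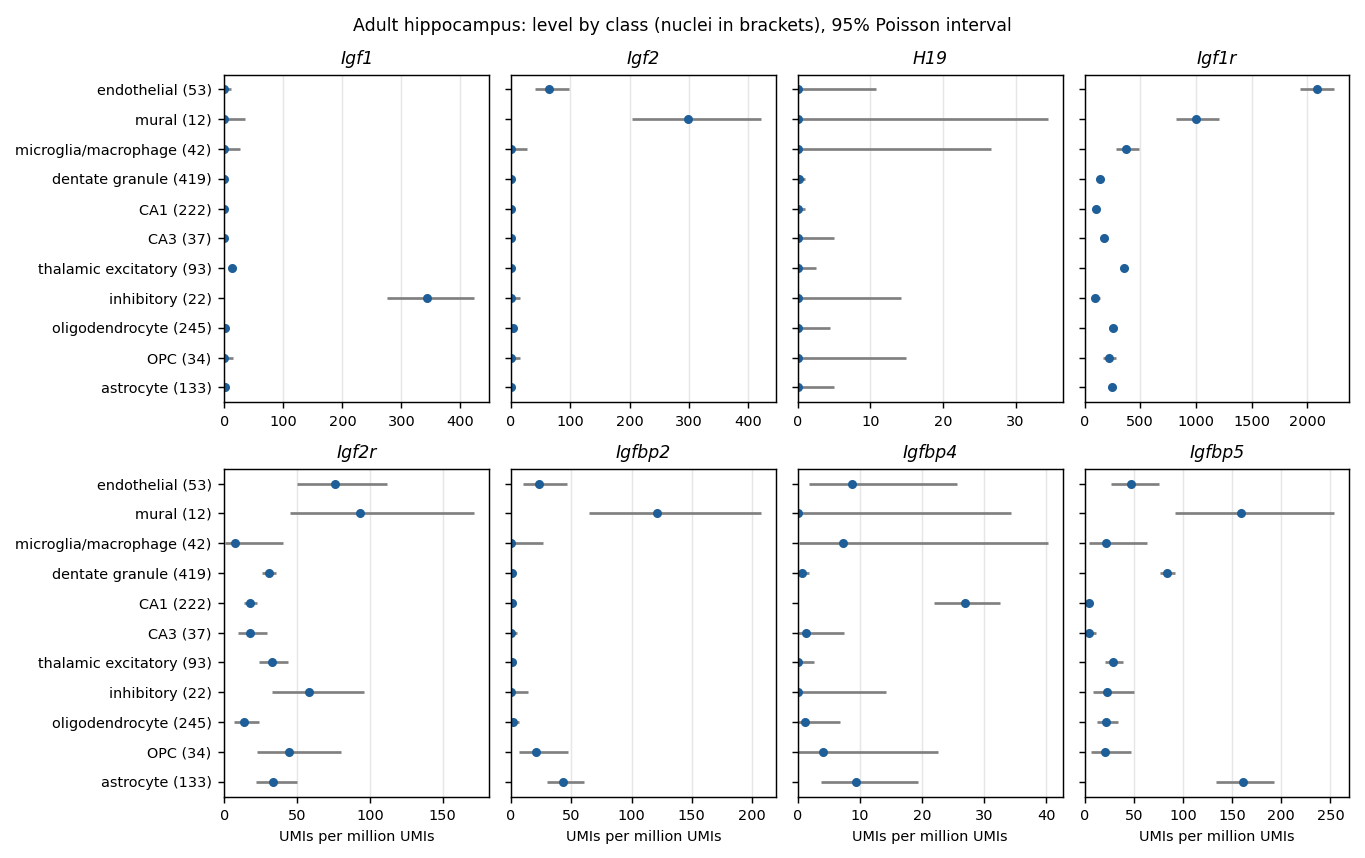
Level of each of the 8 genes in the 11 classes of the adult library, in CPM on linear axes that differ between panels, with 95% Poisson intervals as bars. Igf1 stands out in inhibitory-like nuclei (344), Igf2 in mural-like nuclei (299), Igf1r in endothelial-like nuclei (2084), Igfbp4 in CA1-like nuclei (26.9) and Igfbp5 in astrocyte-like and mural-like nuclei (161 and 159).

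Igf1r, the signalling receptor, was found in every class of both libraries and was highest in endothelial-like nuclei of both. In the adult it stood at 2084 CPM (1934 to 2243) in that class, where 52 of 53 nuclei had a UMI, with a lowest count of 0, a median of 12 and a highest of 70. Mural-like nuclei followed at 998 CPM (818 to 1206), microglia or macrophage-like nuclei at 376 CPM (281 to 493) and thalamic excitatory-like nuclei at 353 CPM (323 to 386). The first 2 differed from each other and from the rest beyond their intervals, and the next 2 did not differ. Oligodendrocyte-like, astrocyte-like and oligodendrocyte precursor-like nuclei, at 253, 246 and 219 CPM, overlapped, and the neurons of the hippocampus were lowest, with CA3-like at 178, dentate granule-like at 139.9, CA1-like at 99.7 and inhibitory-like nuclei at 96.6 CPM. After thinning, 82.0% of adult endothelial-like nuclei (68.6 to 91.4%, 3 left out) and 6.54% of CA1-like nuclei (3.62 to 10.7%, 8 left out) had an Igf1r UMI.

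At E14, Igf1r in endothelial-like nuclei was at 1129 CPM (1072 to 1187), clear of every other class. The other 11 classes lay close together, from 389.9 CPM (336 to 449.9) in microglia or macrophage-like to 619 CPM (599 to 639.6) in forebrain GABAergic-like nuclei. Forebrain GABAergic-like, mural-like and radial glia-like nuclei (589.9 CPM) overlapped at the top of that range, and thalamic-like (440.1 CPM), hypothalamic-like (407 CPM) and microglia or macrophage-like nuclei at its foot. Cajal-Retzius-like, choroid plexus epithelium-like, intermediate progenitor-like, cortical excitatory-like and mesenchyme-like nuclei, between 506 and 538 CPM, were not distinguishable. Of the 4 classes with most Igf2 at E14, the endothelial-like nuclei alone stood apart in Igf1r.

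**Figure D4:**
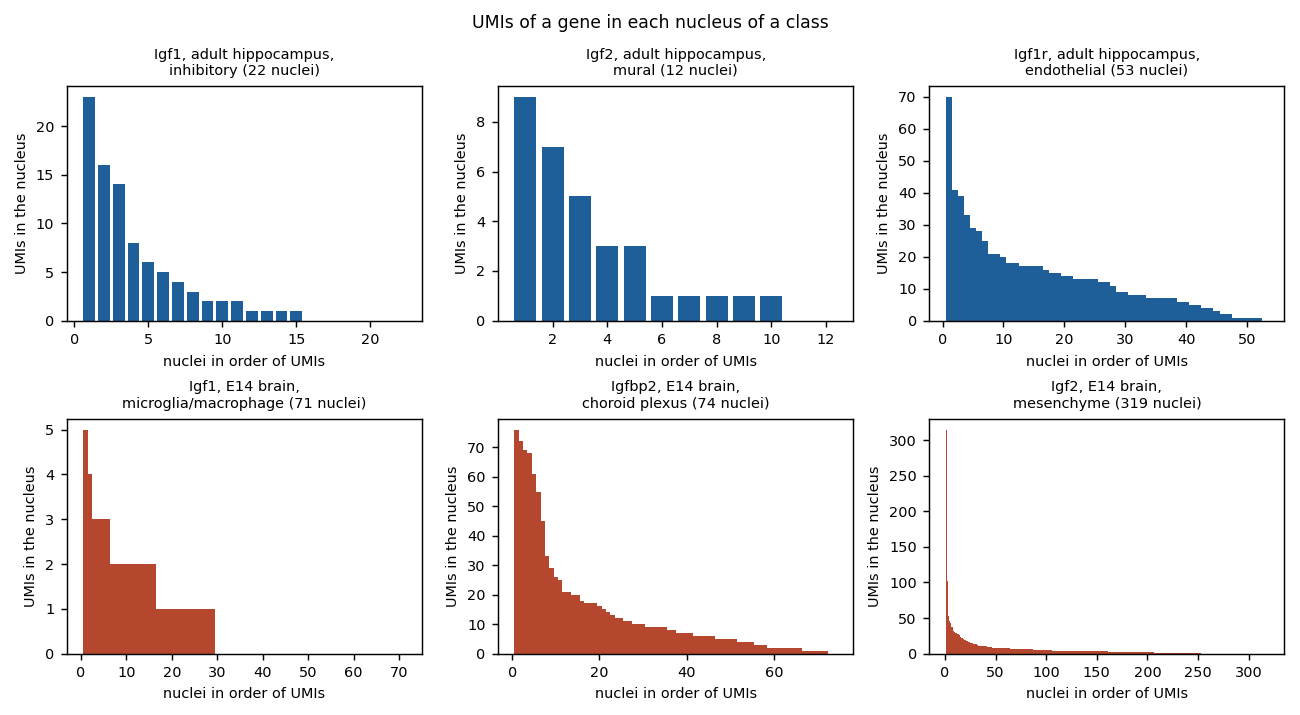
UMIs of a gene in each nucleus of 6 classes, with nuclei in falling order on the horizontal axis and UMIs on a linear vertical axis. Igf1r is spread over nearly all 53 adult endothelial-like nuclei (median 12), whereas 3 of 22 adult inhibitory-like nuclei hold 53 of 89 Igf1 UMIs and 1 of 319 E14 mesenchyme-like nuclei holds 315 of 1983 Igf2 UMIs.

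Igf2r, the clearance receptor, was highest at E14 in the vascular and mesenchymal classes. Endothelial-like nuclei stood at 642 CPM (599.8 to 687) and mural-like nuclei at 587 CPM (525 to 655), which overlapped, followed by mesenchyme-like nuclei at 345 CPM (319.8 to 372) and choroid plexus epithelium-like nuclei at 118 CPM (100.4 to 138). All other classes lay between 33.4 CPM in microglia or macrophage-like and 77.5 CPM in intermediate progenitor-like nuclei. In the adult it was lower and flatter: 93.3 CPM (44.7 to 172) in mural-like, 76.2 CPM (49.8 to 112) in endothelial-like and 58.0 CPM (32.5 to 95.6) in inhibitory-like nuclei, with overlapping intervals, down to 1 UMI in microglia or macrophage-like nuclei. Airn, the overlapping antisense RNA known for silencing paternal Igf2r, had the same leading classes at E14, with 938 CPM in mural-like, 907 CPM in endothelial-like and 586 CPM in mesenchyme-like nuclei.

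Of the binding proteins, Igfbp2 marked the choroid plexus and the mesenchyme. At E14 it stood at 790.1 CPM (743 to 839.7) in choroid plexus epithelium-like nuclei and at 473 CPM (444 to 504) in mesenchyme-like nuclei. The median depths of these classes were 13243 and 3934 UMIs. In the first, 72 of 74 nuclei had an Igfbp2 UMI, with a median of 7.5 and a highest count of 76. After thinning, the shares of nuclei with a UMI had the reverse order, 31.0% (20.5 to 43.1%) of choroid plexus epithelium-like and 42.9% (37.2 to 48.8%) of mesenchyme-like nuclei. Their intervals overlapped, so no order is read from the shares. Thalamic-like nuclei, lowest by CPM at 35.0, had a share of 3.92%. Mural-like and intermediate progenitor-like nuclei (133 and 125 CPM) overlapped, as did radial glia-like, endothelial-like and cortical excitatory-like nuclei (101, 90.9 and 87.0 CPM). In the adult Igfbp2 had 82 UMIs, at 121 CPM (64.6 to 207) in mural-like nuclei, where 4 of 12 nuclei had one, 43.0 CPM (29.4 to 60.7) in astrocyte-like, 23.4 CPM (10.1 to 46.2) in endothelial-like and 20.3 CPM in oligodendrocyte precursor-like nuclei.

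Igfbp4 changed its leading classes between the libraries. At E14 it was highest in endothelial-like nuclei at 170.4 CPM (149 to 194), followed by mesenchyme-like nuclei at 117 CPM (102 to 133) and microglia or macrophage-like nuclei at 100.1 CPM (73.8 to 133), which overlapped, and by mural-like nuclei at 52.7 CPM. The other 8 classes lay between 8.05 and 21.6 CPM. In the adult, CA1-like nuclei held 103 of its 159 UMIs, at 26.9 CPM (21.9 to 32.6), while CA3-like nuclei had 1 UMI, dentate granule-like nuclei 4 and endothelial-like nuclei 3. After thinning, 3.74% of CA1-like nuclei (1.63 to 7.23%) had an Igfbp4 UMI against 0 of 415 dentate granule-like nuclei. Nuclei without a class held 38 UMIs, at 33.1 CPM.

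Igfbp5, encoded beside Igfbp2, had another pattern. At E14 radial glia-like nuclei were highest at 52.2 CPM (45.8 to 59.4), overlapping with mural-like nuclei at 36.3 CPM (22.2 to 56.1), and mesenchyme-like nuclei followed at 35.3 CPM (27.6 to 44.5). The others lay between 8.43 CPM in cortical excitatory-like and 28.2 CPM in choroid plexus epithelium-like nuclei. In the adult astrocyte-like nuclei were highest at 161 CPM (134 to 193), level with mural-like nuclei at 159 CPM (92.4 to 254), where 12 of the 17 UMIs came from 1 nucleus. Dentate granule-like nuclei were next at 83.6 CPM (76.2 to 91.6), and CA1-like and CA3-like nuclei were lowest at 4.70 and 4.0 CPM, clear of the dentate granule-like nuclei and overlapping each other. Among the hippocampal neurons of the adult, Igfbp4 was high in CA1-like and Igfbp5 in dentate granule-like nuclei.

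Set against all other named nuclei of the same library, 6 of the 8 genes were at least 2-fold higher in E14 mesenchyme-like nuclei: H19 (53.2-fold), Igf2 (24.5-fold), Igf1 (5.20-fold), Igfbp2 (4.65-fold), Igfbp4 (4.52-fold) and Igf2r (3.62-fold). Of the 11774 genes that reached 10 CPM in this class or in the others, 12.1% were that much higher in it. In E14 endothelial-like nuclei 4 genes were higher, Igf2r (7.34-fold), Igfbp4 (6.66-fold), Igf2 (3.80-fold) and Igf1r (2.17-fold), against 16.0% of 11946 tested genes. In adult endothelial-like nuclei 4 were higher, Igf2 (26.3-fold), Igf1r (11.9-fold), Igfbp2 (5.33-fold) and Igf2r (2.87-fold), against 30.0% of 12254 tested genes. Without the nucleus that held 11 of the 22 Igf2 UMIs, Igf2 in the adult class was at 36.2 CPM in place of 64.5 CPM. Igfbp4, among the E14 endothelial genes, was at 1.03-fold (0.210 to 3.09) in the adult class.

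Over whole libraries, Igf2 was at 62.3 CPM at E14 and 3.65 CPM in the adult, 17.1-fold higher (13.1 to 22.7). Igfbp2 was 16.8-fold higher at E14 (13.5 to 21.1; 89.7 against 5.34 CPM), Igf2r 2.88-fold (2.61 to 3.18), Igf1r 2.25-fold (2.17 to 2.33) and Igfbp4 2.24-fold (1.90 to 2.66), while Igfbp5 was 0.446-fold (0.408 to 0.488; 22.9 against 51.3 CPM). H19 had 1989 UMIs at E14 and 1 in the adult, a ratio of 518 (92.9 to 20472). Igf1 did not differ beyond counting error, at 6.77 and 8.01 CPM (0.845-fold, 0.689 to 1.04). By a 2-fold rule at 10 CPM or more in the higher library, 7 of the 8 genes were tested, 6 were higher at E14 against 17.6% of 11762 tested genes and 1 was lower against 16.0%, and for 6 of the 8 the interval also lay beyond 2-fold. The libraries differ in which classes they hold, so these ratios do not separate cell makeup from level per nucleus.

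Within endothelial-like nuclei, with 115 at E14 and 53 in the adult, the receptors went in opposite directions. Igf2r was 8.43-fold higher at E14 (5.71 to 13.0; 642 against 76.2 CPM), and Igf1r was 1.85-fold higher in the adult (1.69 to 2.02; 2084 against 1129 CPM). Airn, which overlaps Igf2r, was 7.20-fold higher at E14 (5.31 to 10.0), at 907 against 126 CPM. Reads from the overlap cannot be assigned with certainty. Igf2 was 5.44-fold higher at E14 (3.55 to 8.76), Igfbp4 had a ratio of 19.4 (6.55 to 94.7) with 3 adult UMIs, and Igfbp2 was 3.88-fold higher (1.91 to 9.19). H19 and Igf1 had no adult UMI, and the lower bounds of their 95% intervals for E14 over adult were 8.84 and 1.21. Igfbp5 was 5.16-fold higher in the adult (2.29 to 11.9). By the 2-fold rule 6 genes were higher and 1 lower at E14, against 22.9% and 19.8% of 12336 tested genes. The 6 include Igf1, whose adult count of 0 shows no more than the bound just given, and 5 of the 8 had intervals or bounds beyond 2-fold. The endothelial list itself was at 4639 CPM at E14 and 9010 CPM in the adult, the mural list in these nuclei at 983 and 4051 CPM, and the fibroblast list at 554 and 96.7 CPM, and their part in these ratios was not tested.

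Microglia or macrophage-like nuclei numbered 71 at E14 and 42 in the adult. Igf1 had no adult UMI in them, and the lower bound of its interval for E14 over adult was 4.08. Igfbp4 had a ratio of 13.8 (2.37 to 558) with 1 adult UMI. Igf1r was level, at 389.9 and 376 CPM (1.04-fold, 0.759 to 1.44). By the 2-fold rule 6 genes were higher and 0 lower at E14, against 26.7% and 22.3% of 12483 tested genes. Only Igf1 and Igfbp4 had intervals beyond 2-fold. The lower bounds were 1.11 for Igf2 and 1.19 for Igfbp2. Igf2r had 1 adult UMI and H19 was under the level of 3 UMIs of the adult class. Mrc1 had 825 UMIs in the E14 class and 0 in the adult class, and the part of this difference in the Igf1 values was not tested.

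**Figure D5:**
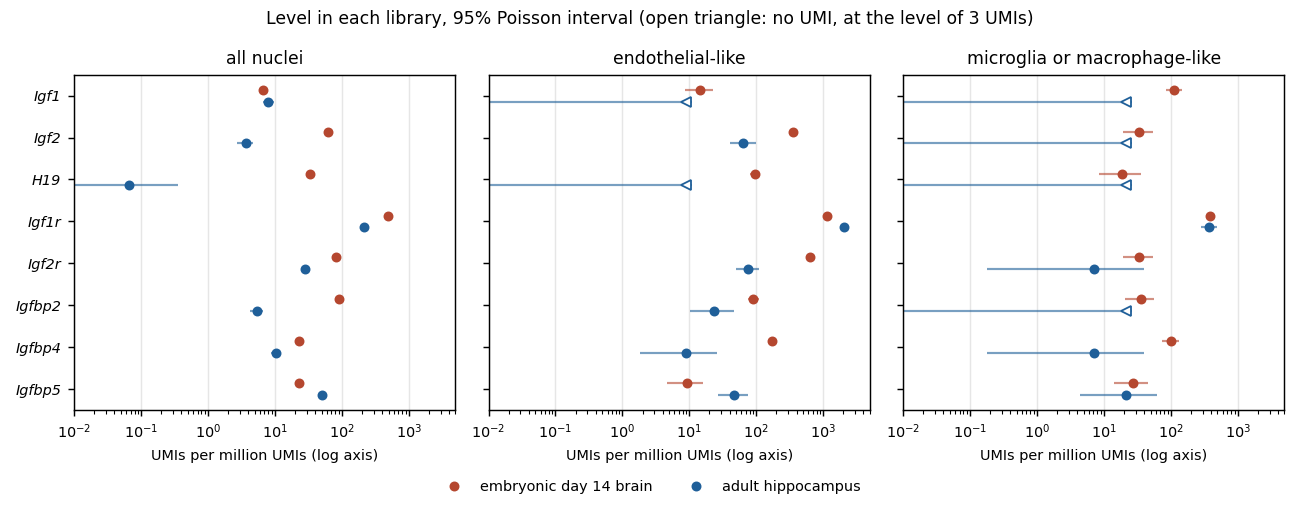
Level of the 8 genes at E14 (red) and in the adult (blue) over all nuclei, in endothelial-like and in microglia or macrophage-like nuclei, in CPM on a log axis, with 95% Poisson intervals as bars and open triangles at the level of 3 UMIs where no UMI was found. In endothelial-like nuclei Igf1r is higher in the adult (2084 against 1129) while Igf2r is higher at E14 (642 against 76.2).

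Other genes of the pathway were counted over whole libraries by the same 2-fold rule, which 17.6% of tested genes passed as higher at E14 and 16.0% as lower. All 3 genes for IGF2 mRNA-binding proteins, which bind Igf2 and other transcripts, were higher at E14: Igf2bp1 at 68.8 against 0.521 CPM, Igf2bp2 at 128 against 1.30 CPM and Igf2bp3 at 244 against 114 CPM. Of 6 receptor adaptors 4 were tested, with Grb10, an imprinted inhibitor of the receptors, higher (187 against 32.1 CPM) and Grb14, a relative of it, lower (34.0 against 94.4 CPM). Of 6 other binding proteins 2 were tested, and Igfbpl1 was higher (309 against 4.37 CPM) while Igfbp7 was not past the fold. Of 5 proteases of binding proteins and their inhibitors 3 were tested, with Pappa and Pappa2 (20.4 against 7.49 CPM for the latter) higher and Htra1 (6.45 against 53.6 CPM) lower. Of the 4 insulin ligand and receptor genes 1 was tested and none passed, with Insr at 145 and 87.2 CPM, and Ins1 had no UMI in either library. Of 9 imprinted genes known as a network with Igf2 and H19, all were tested, 6 were higher (Cdkn1c, Dlk1, Plagl1, Mest, Ndn and Sgce), against 17.6% of tested genes, and none lower, against 16.0%, while Meg3, Peg3 and Kcnq1ot1 were not past the fold. Within endothelial-like nuclei 8 of these 9 were higher at E14, all but Cdkn1c (102 against 93.8 CPM), as were the 3 Igf2bp genes, against 22.9% of tested genes. Igfbpl1 in endothelial-like nuclei was at 84.8 CPM at E14 against 2.93 CPM in the adult. Meg3 in microglia or macrophage-like nuclei was at 3019 against 332 CPM. The part of RNA from other cells in these values was not tested.

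Likeness of pattern was described by Pearson correlation of log2(CPM + 1) over the 12 E14 classes, which share 1 library and differ in depth, among 13842 genes with at least 200 UMIs and outside the marker lists. The gene most like Igf2r was Airn (r = 0.98), which overlaps it, so reads from the overlap cannot be assigned with certainty. The gene most like H19 was the collagen gene Col6a1 (0.99), followed by Itih5 and Vamp5. Igf2 was most like Arhgap28, Hdlbp and Tbx15 (0.96, 0.96 and 0.95), and Igf1 most like Oma1, Dab2 and Apoe (0.93, 0.92 and 0.92). Igf1r was most like Itga2 (0.94), Igfbp2 like Slc2a12 (0.94) and Igfbp4 like Slc25a24 (0.97). Between the 8 genes, the highest correlations were those of Igf2 with H19 (0.86) and with Igf2r (0.85), and of H19 with Igfbp4 (0.80).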

How the data were processed

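The counts were deposited by the authors as 1 matrix of genes by nuclei per tissue, with whole-number UMI counts that were not normalized. Per the file headers the matrices were written by Cell Ranger, version 6.1.2 for the adult and 7.0.1 for E14, with an mm10 reference, and the study's methods count intronic reads. Those methods name CellBender for the embryo, whereas the header of the E14 file is that of Cell Ranger; whether free RNA had been removed from it is not known here. The strand setting is not given in the sources used here.

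Nuclei with at least 500 UMIs and at most 5% mitochondrial UMIs were kept (1609 of 1661 and 9036 of 9037). A nucleus was seeded in a class by 3 or more markers of its list with a lead of 2, classes with 5 or more seeds were refined over 6 rounds of a Poisson likelihood of marker UMIs with a log-likelihood margin of 3, and 2 own markers with 3 UMIs were required. Classes of 10 or more nuclei were described, and those of 20 or more in both libraries were compared. This rule was set after marker UMIs had been seen, and an erythroid list was not used because globin UMIs were spread over nuclei. The 8 genes and all gene lists were chosen with earlier results of these data known. All 8 are named, and genes of the other lists were counted and given values by a rule of at least 2-fold and 20 CPM; the values of Insr, Igfbp7 and endothelial-like Cdkn1c fall outside it and were added after they had been seen. A gene was tested, in the sense of the 2-fold rule, at 10 CPM or more in the higher group. Scrublet's automatic threshold marked 6 adult and 4 E14 nuclei, which is under the expected number, so doublets were kept and the 21 and 653 top-scoring nuclei, a rate of 0.8% per 1000 nuclei, were removed in an alternative. Other alternatives were a minimum of 1000 UMIs, at most 1% mitochondrial UMIs, classes from clusters, 6 own marker UMIs, the mean over nuclei, thinning to 2000 UMIs and a 4-fold rule. No column of another sample was used. The code was tested on simulated data and used Python 3.11.15, numpy 2.4.6, scipy 1.17.1, pandas 2.3.3, matplotlib 3.10.9 and scanpy 1.11.5. The gene most like Igfbp5 in pattern is not reported here.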

Additional observations from a re-analysis of the deposited data

Results flagged for a closer look

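Igfbp2 in endothelial-like nuclei lay on opposite sides of the other named nuclei of each library: it was 0.708-fold (0.586 to 0.850) at E14 and 5.33-fold (2.20 to 11.2) in the adult, where its 8 UMIs lay in 4 nuclei. Its own level was 90.9 CPM at E14 and 23.4 CPM in the adult, beside 128 and 4.40 CPM in the other named nuclei. These include choroid plexus epithelium-like and mesenchyme-like nuclei at E14 alone. Igf1r in microglia or macrophage-like nuclei was 0.710-fold (0.611 to 0.820) at E14 and 1.71-fold (1.28 to 2.25) in the adult. Its own level was 389.9 and 376 CPM, beside 549 and 219 CPM in the other named nuclei. With 1 library per tissue neither difference was tested.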

How the results depend on the processing

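Of 114 values of 25 results under the alternatives, 83 moved by less than the counting interval or, for counts, by less than 1.5 times, and 31 moved further. The cause was not tested. Levels, shares and counts cannot change direction. Igf1r for E14 over adult in microglia or macrophage-like nuclei crossed 1, from 1.04 to 0.789 as a mean over nuclei, within its interval (0.759 to 1.44). The other ratios kept their direction. With likely doublets removed, E14 mesenchyme-like nuclei held Igf2 at 1290.1 CPM (30.9-fold over other named nuclei) and H19 at 947 CPM, endothelial-like Igf2 was 391 CPM, choroid plexus epithelium-like Igfbp2 852 CPM and microglia or macrophage-like Igf1 151 CPM, and adult endothelial-like Igf1r was 12.9-fold over the others. With classes from clusters, mesenchyme-like Igf2 was 771 CPM (18.8-fold) and H19 544 CPM, E14 endothelial-like Igf2 258, Igf2r 536 and Igfbp4 116 CPM, adult endothelial-like Igf1r 1871 CPM (10.9-fold, and 0.480 for E14 over adult) and adult inhibitory-like Igf1 174 CPM in 42 nuclei. With 6 own marker UMIs, mesenchyme-like H19 was 745 CPM. As a mean over nuclei, mesenchyme-like Igf2 was 1195 CPM (31.1-fold), choroid plexus epithelium-like Igfbp2 891, E14 microglia or macrophage-like Igf1 192, adult endothelial-like Igf1r 2709 (13.7-fold, and 0.492 for E14 over adult) and astrocyte-like Igfbp5 216 CPM. Without the nucleus that held most of the gene, an alternative chosen after seeing the data, mesenchyme-like Igf2 was 867 and H19 489 CPM. A 4-fold rule left 3 of the 8 genes past the fold over all nuclei. Thinning to 2000 UMIs gave Igf2 in 65.4% and H19 in 34.6% of mesenchyme-like nuclei. Clusters gave no choroid plexus epithelium-like or mural-like class, and no adult mural-like class was left once doublets were removed, so those values were not obtained. No paired analysis was possible because each tissue has 1 library. Several adult values rest on small classes: 12 mural-like, 22 inhibitory-like, 42 microglia or macrophage-like and 53 endothelial-like nuclei.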

Other observations

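Other genes of the pathway had their own leading classes at E14. Igfbpl1, a relative of the binding proteins, was highest in intermediate progenitor-like nuclei at 869 CPM (824 to 915), followed by cortical excitatory-like nuclei at 668 CPM and hypothalamic-like nuclei at 495 CPM, and lowest in endothelial-like nuclei at 84.8 CPM. Igfbp7, a secreted relative, was highest in endothelial-like nuclei at 625 CPM (583 to 669), followed by mural-like nuclei at 309 CPM, and was at 24.4 CPM or less elsewhere. Grb10, the imprinted adaptor, was highest in mesenchyme-like nuclei at 677 CPM (641 to 713) and choroid plexus epithelium-like nuclei at 624 CPM (582 to 668), whose intervals overlapped. Cdkn1c, an imprinted inhibitor of the cell cycle, was highest in mesenchyme-like nuclei at 457 CPM (428 to 488), with the next class, endothelial-like, at 102 CPM. Insr, the insulin receptor, was highest in endothelial-like nuclei at 473 CPM (436 to 511), as Igf1r was, with the next class, mural-like, at 207 CPM.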
